A study of Mus musculus with 7 samples.

Results

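The genes of the motile cilium were examined in single nuclei of mouse small cell lung cancer, in which the tumor cells are neuroendocrine and are not ciliated airway cells. All genes were taken whose symbol starts with Dnah, Dnai, Dnaaf, Cfap, Rsph, Drc, Odad, Spag16, Spag17 or Spag6, which gave 94 of the 56941 genes listed. They comprise 15 dynein heavy chain genes, 4 dynein intermediate chain genes, 4 genes of the outer arm docking complex, 8 radial spoke genes, 3 genes of the nexin-dynein regulatory complex, 11 genes of the central apparatus, 9 genes of the spoke base, tether and ruler, 12 genes of proteins inside the microtubules and 28 others, among them the 11 genes named as assembly factors (Dnaaf). Some carry such a name without being restricted to motile cilia. Nuclei came from fresh-frozen lung tumors of 4 male mice, and their transcripts were counted by split-pool barcoding. RP mice (RP1 and RP2) carried floxed Rb1 and Trp53, and RPC mice (RPC1 and RPC2) additionally floxed Casp8, whose loss the labels write as Casp8-/-. Inhaled adenoviral Cre under the CMV promoter, which is not restricted to 1 cell type, recombined the alleles in the lung of all 4 mice. Every library pooled nuclei of all animals, so the animal was the replicate (n = 2 per genotype), and RP and RPC name the animals as labelled.

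A motile cilium is built on an axoneme of paired microtubules. Outer and inner dynein arms slide the doublets past each other, radial spokes and the central apparatus set the rhythm, and the nexin-dynein regulatory complex links neighboring doublets. In the lung such cilia stand on multiciliated airway cells, where FOXJ1 and the RFX factors switch on the whole set of genes, while most other cells carry at most a single immotile primary cilium that lacks dynein arms.

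After filtering, between 8363 and 10853 nuclei per animal remained. Of these, 7311, 7393, 9256 and 8798 in RP1, RP2, RPC1 and RPC2 were called tumor-like, and 65 in all ciliated-like, by markers that exclude the 94 genes. The ciliated-like cluster was led by Rgs22, Hydin, Spef2 and Cdhr3, of which the last 3 were fixed as ciliated markers. Depth differed with genotype: the median tumor-like nucleus held 2307 and 2245 transcripts in RP1 and RP2, against 3327 and 2815 in RPC1 and RPC2. Rn18s-rs5, a ribosomal RNA, took 9.53% and 7.87% of tumor-like transcripts in the RP animals and 2.81% and 5.12% in the RPC animals. Casp8 itself was not lower in the animals labelled RPC (58.9 and 61.0 CPM in RP1 and RP2, 88.9 and 65.9 CPM in RPC1 and RPC2), and since counts were given for the whole gene, they do not separate the floxed part. Values per animal are given in the same order below, for single genes in tumor-like nuclei after TMM scaling (trimmed mean of M values). CPM is the number of transcripts in every 1000000 of the class.

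In ciliated-like nuclei the 94 genes together took 35765, 23926, 27438 and 23863 CPM, and they made up a median of 3.10% to 4.19% of the transcripts of a nucleus. In tumor-like nuclei they took 1163, 1126, 1863 and 1668 CPM. Of the 94 genes, 83 had a higher mean level in ciliated-like than in tumor-like nuclei, 73 of them in every animal, and for 28 the ciliated-like level was at least 100 times the tumor-like one. As the nuclei were clustered on these libraries, no test of this difference was made. Dnah12, an inner arm heavy chain, reached 2870, 2688, 5277 and 3542 CPM in ciliated-like nuclei and 2.23, 3.91, 2.37 and 3.75 CPM in tumor-like nuclei. Each animal showed the same wide gap, and the tumor-like mean was 0.0853% of the ciliated-like mean. Cfap43 (1313 ± 230 CPM, SD over 4 animals), Cfap44 (1287 ± 192), Dnah6 (1206 ± 302), Spag17 (1078 ± 284), Cfap299 (1064 ± 360), Dnah9 (1015 ± 309), Dnah3 (985 ± 419), Cfap54 (927 ± 232) and Dnah5 (856 ± 175) followed in ciliated-like nuclei, where long genes can collect more transcripts. Per kilobase of gene, Cfap65 (19.0 CPM per kb), Dnah12 (18.0), Dnaaf3 (15.9) and Cfap44 (14.7) had the highest ciliated-like levels.

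A few members were not of this kind. The Dnaaf9 gene, whose product is related to a factor that packages outer arms before transport, was at 261, 226, 319 and 300.2 CPM in tumor-like nuclei and at 416 ± 114 CPM in ciliated-like nuclei, so its tumor-like mean was 66.4% of the ciliated-like one. Cfap20dc was more abundant in tumor-like nuclei (81.9, 57.7, 110 and 104 CPM) than in ciliated-like nuclei (40.6 ± 17.4 CPM). Spag6, a copy of the central apparatus gene Spag6l, gave only 4 transcripts in all ciliated-like nuclei. Dnah17 and Rsph6a, the paralogs that sperm use in place of airway forms, had none among 675293 ciliated-like transcripts, which allows up to 4.44 CPM, and their tumor-like levels lay under that limit. Per kilobase of gene, Cfap20 (3.39 CPM per kb), Cfap418 (1.99) and Odad1 (1.45) had the highest tumor-like levels.

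RPC was then compared with RP in tumor-like nuclei, summed per animal, which asks whether these genes differ with Casp8 genotype. With the quasi-likelihood test of edgeR, 84 of the 94 genes had enough counts to be tested. Of all 20217 genes tested, edgeR called none at an adjusted p under 0.05 (0%), and thus no member, the smallest adjusted p among members being 0.27. At an unadjusted p under 0.05, 26 members were higher and 2 lower in RPC, whereas over all genes 7.38% were higher and 7.74% lower. With 1 animal left out at a time, the 26 became 16 and 14 on leaving out RP1 or RP2, and 14 and 21 on leaving out RPC1 or RPC2. DESeq2, used by the study and run here as an alternative, called 10 members higher and none lower, against 2.00% higher and 1.74% lower over all genes with an adjusted p. Both RPC animals exceeded both RP animals for 43 members (24.7% of all genes did so) and lay below them for 11 (25.9% of all genes), and the animals overlapped for the remaining 30. In all, 61 of the 84 had a fold change above 0, and their median log2 fold change was 0.43, beside -0.01 over all genes tested. The summed level was 1.54 times as high in RPC as in RP (1145 ± 26.4 against 1765 ± 138 CPM, SD, n = 2 each). It was also higher in both RPC animals in most other classes of nuclei, as given with its limits below. Summed over all kept nuclei instead, the member median was 0.15, with 19 higher and 9 lower at an unadjusted p under 0.05. Those sums contain all classes, among them the ciliated-like nuclei (0.120%, 0.316%, 0.0829% and 0.177% of nuclei), and the part of each class was not tested. Depth per nucleus and the share of Rn18s-rs5 also separated the genotypes, and their part in these values was not tested.

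**Figure D1:**
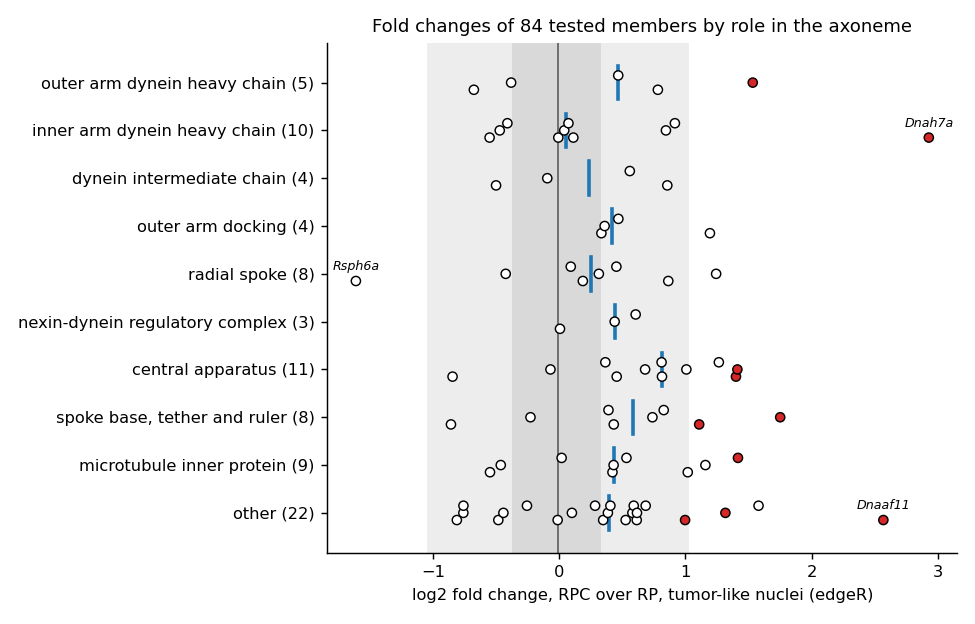
Log2 fold changes of RPC over RP in tumor-like nuclei for the 84 tested members, grouped by role with the number tested in parentheses. Points are genes, red those called by DESeq2 (10 genes), blue bars the medians of the roles, and the gray bands hold the middle 50% and 90% of all tested genes around their median line. Dnah7a (2.93) and Dnaaf11 (2.57) stand at the right and Rsph6a (-1.61) at the left.

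Among the inner arm heavy chains, Dnah7a differed most. This gene lies on the minus strand of GRCm39 at chr1:53436165-53746005 and was at 3.81, 6.19, 36.9 and 39.3 CPM in tumor-like nuclei. Both RPC animals stood far above both RP animals and close to each other, with a log2 fold change of 2.93 ± 0.29 (SE; edgeR adjusted p = 0.27, DESeq2 adjusted p = 6.5e-15). Values with ± after CPM are likewise log2 fold changes with SE below. In ciliated-like nuclei Dnah7a was at 232, 271, 410 and 215 CPM, so the RPC tumor-like nuclei still lay well below the cells that build motile cilia. Mouse has 3 copies of this gene on chromosome 1, and Dnah7b (47.0, 111, 151 and 132 CPM) had a log2 fold change of 0.85 ± 0.41, which was 0.36 without RP1 and 1.60 without RP2. Dnah7c (4.61, 8.04, 5.94 and 7.07 CPM) overlapped between genotypes. Since the copies are alike, reads may have been split between them, so the values of each copy are uncertain. Dnah7a starts 5.09 Mb from the start of Casp8 on the same chromosome, and position near that allele and the Casp8 genotype cannot be told apart here.

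The start regions of the 3 copies and of Cfap44, the member with the third largest fold change, are shown because they hold the letters of an X-box, the inverted repeat that RFX factors bind in ciliary genes. Each window runs from up to 60 bases before the repeat to 20 after it and ends before the start site (RefSeq, GRCm38.p6, 5′ to 3′ on the strand of the gene). Capitals mark the repeat, searched as GTTGC and GCAAC with 3 or 4 free bases between them, which reads alike on either strand.
Dnah7a: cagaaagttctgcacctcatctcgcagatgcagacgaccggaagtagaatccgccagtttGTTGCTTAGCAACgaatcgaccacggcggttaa
Dnah7b: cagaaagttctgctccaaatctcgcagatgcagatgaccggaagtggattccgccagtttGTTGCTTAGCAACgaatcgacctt
Dnah7c: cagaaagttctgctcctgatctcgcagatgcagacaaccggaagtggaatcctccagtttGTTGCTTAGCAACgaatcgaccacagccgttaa
Cfap44: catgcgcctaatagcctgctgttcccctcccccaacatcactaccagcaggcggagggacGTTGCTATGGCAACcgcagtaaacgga

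The windows are at chr1:53706809-53706901 (minus strand) for Dnah7a, chr1:46066769-46066852 for Dnah7b, chr1:46425389-46425481 for Dnah7c and chr16:44394712-44394798 for Cfap44. The 3 copies held the same 13 letters, and Dnah7a and Dnah7c were identical at 86 of 93 bases (92.5%), while their log2 fold changes were 2.93 ± 0.29 and 0.04 ± 0.35. Start windows of 300 bases were found for 61 of the 94 members, by symbol or synonym. One of the forms stood in 9 of their 65 windows (13.8%), against 131 of 32851 windows of all genes (0.399%). This contrast is no test, as the forms were chosen after the sequences were read. The 9 windows also include those of the 3 alike Dnah7 copies. The 9 members with a form, all tested, had a median log2 fold change of 0.11 and included Dnah6 and Dnai2, while 47 tested members with a window and no form had a median of 0.43. A match describes letters and not binding.

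The other inner arm heavy chains had log2 fold changes from -0.55 to 0.92. Dnah2 was at 28.5, 22.8, 55.8 and 41.0 CPM, without overlap between genotypes (log2 fold change 0.92 ± 0.23, edgeR adjusted p = 0.27). Dnah12 (-0.01 ± 0.43), Dnah6 (0.11 ± 0.40), Dnah10 (0.07 ± 0.34) and Dnah3 (-0.55 ± 0.44) overlapped between genotypes, each with its log2 fold change in parentheses. Dnah1 (-0.41 ± 0.35) and Dnah14 (-0.47 ± 0.37), both at 1.63 CPM or less, were lower in both RPC animals. Of the 10 inner arm genes, 6 were above 0 (49.0% of all genes), with a median of 0.06.

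Among the outer arm heavy chains, Dnah5 was at 6.66, 9.02, 16.8 and 28.6 CPM, with both RPC animals above both RP animals. Its log2 fold change was 1.53 ± 0.34 (edgeR adjusted p = 0.27, DESeq2 adjusted p = 0.0032). Dnah9, its partner in airway cilia, was at 23.4, 18.2, 35.1 and 36.5 CPM (0.78 ± 0.19). Dnah11 had lower values in both RPC animals (21.5, 13.2, 12.1 and 9.62 CPM) and a log2 fold change of -0.68 ± 0.31. Dnah8, the sperm form, differed most within RPC: RPC2 held 30.8 CPM and RPC1 7.03 CPM, and the RP animals lay between them. The docking complex genes Odad1, Odad2, Odad3 and Odad4 all had fold changes above 0, from 0.33 to 1.19 on the log2 scale, and only Odad3 overlapped between genotypes. Of all genes tested, 49.0% were above 0 and 24.7% had both RPC animals above both RP animals.

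The assembly factors, which fold and load dynein arms in the cytoplasm, were uneven. Dnaaf11 was at 1.76, 3.04, 15.8 and 12.7 CPM, so that the lower RPC animal was well above the higher RP animal. Its log2 fold change was 2.57 ± 0.36 (edgeR adjusted p = 0.27, DESeq2 adjusted p = 3.9e-08). Dnaaf3 had low values (0.659, 0.471, 1.01 and 2.38 CPM) with a log2 fold change of 1.58 ± 0.56, which was 0.86 without RPC2. Dnaaf9, the most abundant member in tumor-like nuclei, had a log2 fold change of 0.35 ± 0.15, and Dnaaf5 was lower in both RPC animals (35.8, 30.4, 25.05 and 23.7 CPM, -0.44 ± 0.17, unadjusted p = 0.0496 by edgeR). Of the 8 tested Dnaaf genes, 6 were above 0 (49.0% of all genes) and 5 had both RPC animals above both RP animals (24.7% of all genes).

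The central apparatus had the highest median of the roles, 0.81 over 11 genes, of which 5 were higher at an unadjusted p under 0.05 and none lower. Over all genes, 7.38% were higher and 7.74% lower. Cfap46 was at 17.9, 16.1, 55.7 and 34.2 CPM (1.40 ± 0.28, DESeq2 adjusted p = 0.0033). Spag6 was at 2.56, 4.13, 10.4 and 7.37 CPM (1.41 ± 0.37, DESeq2 adjusted p = 0.021), and in both genes the genotypes did not overlap. Spag6l (12.3, 5.33, 19.6 and 22.7 CPM) had a log2 fold change of 1.26 ± 0.42, but the copies may share reads. Cfap74 was at 22.6, 26.3, 61.9 and 36.3 CPM and Cfap54 at 11.0, 7.10, 16.5 and 15.3 CPM, again without overlap. Spag16 (-0.07 ± 0.45) and Spag17 (0.45 ± 0.37), also of the central apparatus, overlapped.

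Of the genes at the spoke base and tether, Cfap44, part of the tether that holds an inner arm, was at 2.49, 1.99, 4.49 and 10.6 CPM. The RPC animals differed from each other by more than RPC1 differed from the RP animals (log2 fold change 1.75 ± 0.49, DESeq2 adjusted p = 0.019, and 1.02 without RPC2). Its partner Cfap43 was at 3.92, 4.06, 6.77 and 6.53 CPM (0.74 ± 0.25). Cfap91 was at 5.89, 6.45, 16.2 and 10.4 CPM (1.11 ± 0.30, DESeq2 adjusted p = 0.045). Among proteins inside the microtubules, Cfap68 was at 10.5, 9.16, 29.2 and 23.2 CPM, with close values within each genotype (1.42 ± 0.22, DESeq2 adjusted p = 0.00018). Cfap77 was high in 1 animal, with 53.6 CPM in RPC1 and 14.7 to 19.9 CPM in the other animals. Cfap70 (6.33, 4.38, 15.4 and 11.3 CPM, 1.32 ± 0.31) and Cfap418 (37.2, 29.2, 70.2 and 62.5 CPM, 0.997 ± 0.18) completed the genes called by DESeq2, with adjusted p of 0.011 and 0.0099. Cfap418 is known from retinal photoreceptors, which carry no motile cilium.

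The radial spoke genes had a median of 0.25 over 8 genes, with 2 higher and 1 lower at an unadjusted p under 0.05 (7.38% and 7.74% over all genes). Rsph10b was at 8.75, 7.97, 18.5 and 11.9 CPM (0.86 ± 0.29) and the spoke head gene Rsph4a at 0.256, 0.217, 0.453 and 0.681 CPM (1.24 ± 0.46), both higher in both RPC animals. Rsph6a, the spoke head gene of sperm, had the lowest fold change of all members: 1.28, 1.41, 0.471 and 0.404 CPM, which is a log2 fold change of -1.61 ± 0.35 on 35, 39, 26 and 19 transcripts (edgeR adjusted p = 0.27). Rsph3b, an abundant spoke gene, was at 48.0, 42.1, 52.4 and 43.6 CPM and overlapped. The other genes with the lowest fold changes were mostly sparse, on 7 to 35 transcripts per animal: Cfap58 (-0.86 ± 0.40), Cfap221 (-0.85 ± 0.69), Cfap65 (-0.81 ± 0.64), Cfap157 (-0.76 ± 0.45) and Cfap97d2 (-0.76 ± 0.57), with Dnah11 and Dnah3 above them. The 10 genes not tested were Cfap107, Cfap141, Cfap161, Cfap73, Cfap97d1, Dnaaf4, Dnaaf6, Dnaaf6b, Dnah2os and Spag17os, none above 0.277 CPM in any animal.

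**Figure D2:**
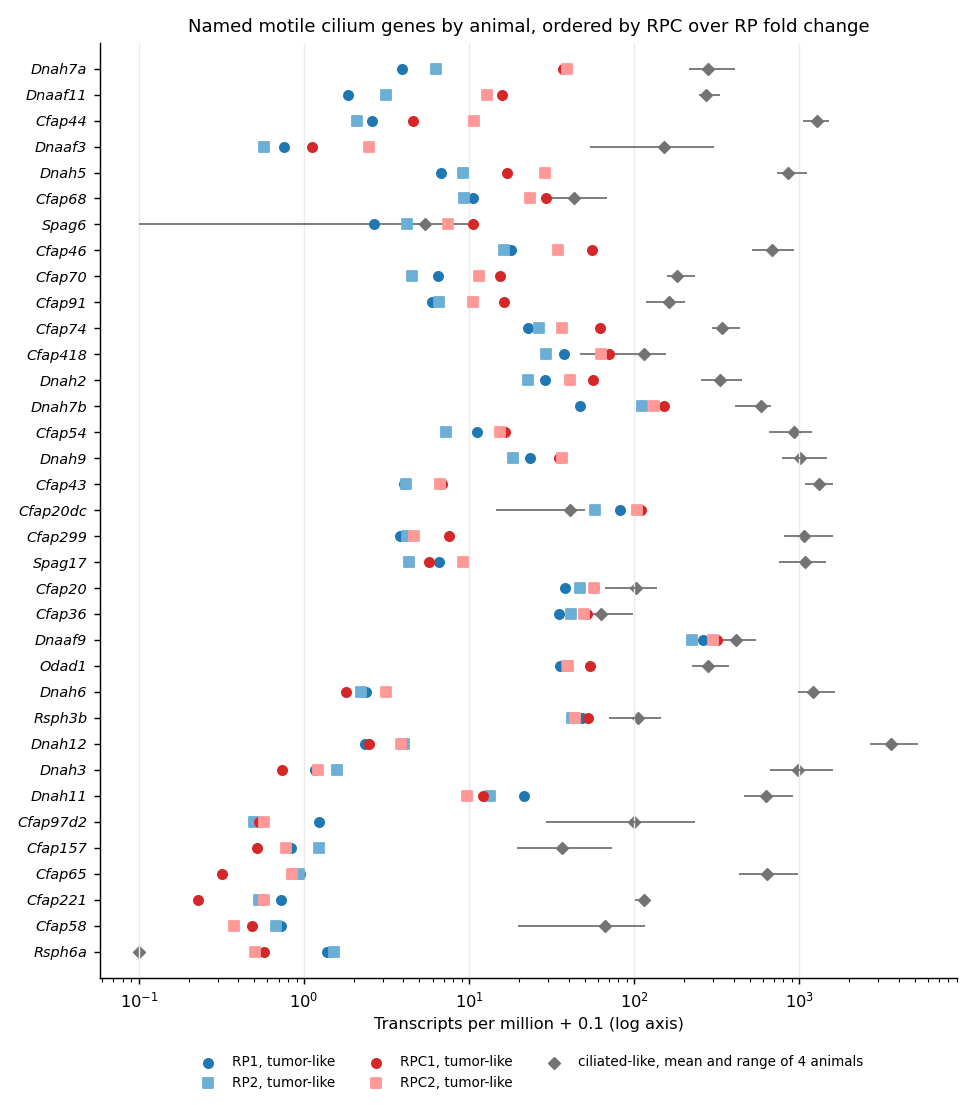
CPM plus 0.1 (log axis) of the 35 named members, ordered by fold change. Circles and squares are the tumor-like nuclei of RP1 and RP2 (blue) and of RPC1 and RPC2 (red), and gray diamonds with lines are the mean and range of the ciliated-like nuclei of the 4 animals. The genotypes separate at the top (Dnah7a at 3.81 and 6.19 against 36.9 and 39.3) and overlap for Dnah12, which of these members is the farthest below its ciliated-like level.

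The members were also grouped by how far their tumor-like level, as the mean of all 4 animals, lay below the ciliated-like one. Of 24 tested members with a tumor-like level under 1% of the ciliated-like one, 13 were above 0, with a median log2 fold change of 0.09. In these the summed tumor-like level was 39.7, 37.8, 43.0 and 60.5 CPM. Of 33 members at 1% to 10%, 27 were above 0 and 13 were higher at an unadjusted p under 0.05, with a median of 0.53 and a summed level of 284, 229, 483 and 415 CPM. Over all genes, 49.0% were above 0 and 7.38% were higher at that p. Of the remaining 27, at 10% or more or with no ciliated-like transcript, 21 were above 0, with a median of 0.41. At the unadjusted p, 9 were higher and 2 lower. Their summed level was 879, 869, 1279 and 1177 CPM, so these members, Dnaaf9 among them, held most of the summed level in every animal. The level of the RPC animals enters this split as well as the fold change. Split by the RP level alone, which also enters the fold change, 27 members lay under 1%, now with Dnah5 (0.897%), Dnaaf11 (0.865%) and Cfap54 (0.953%), and 16 of them were above 0. The medians were then 0.43, 0.47 and 0.37 in the groups from lowest to highest, so the lower median of the first group was not kept. No test between the groups of genes was made.

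**Figure D3:**
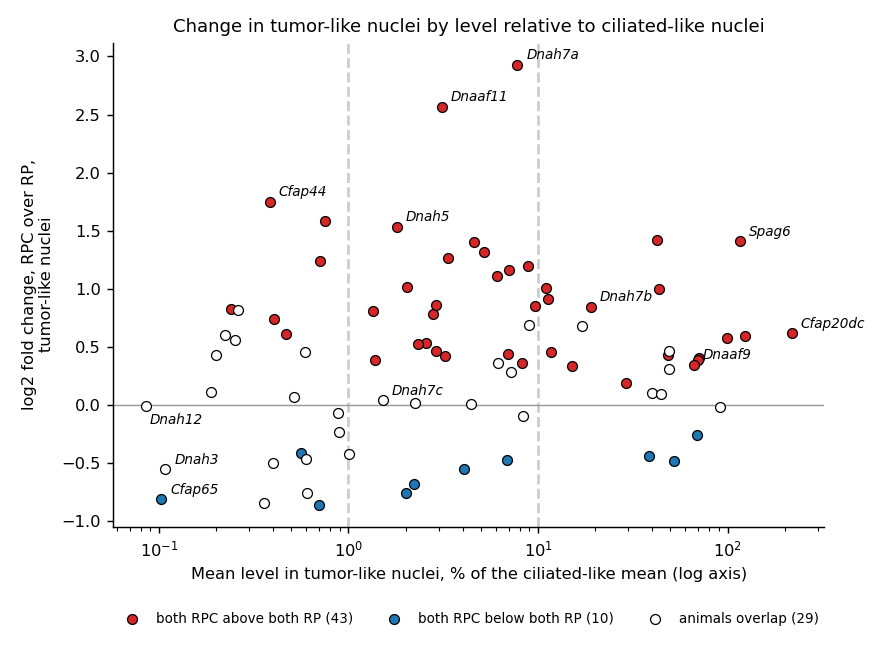
Log2 fold change of RPC over RP in tumor-like nuclei against the tumor-like level, as the mean of both genotypes, in percent of the ciliated-like mean (log axis), for the 82 tested members with a ciliated-like transcript. Red points have both RPC animals above both RP animals (43), blue points both below (10), and open points overlap (29). Dashed lines mark 1% and 10%, between which 6 of the 10 members called by DESeq2 lie, while Dnah12, Cfap65 and Dnah3 sit at or below 0 at the left.

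Single nuclei showed whether few or many carried these transcripts. Nuclei were thinned to 1000 transcripts each, which left out 895, 832, 158 and 475 shallower tumor-like nuclei, more in RP than in RPC, and used 6416, 6561, 9098 and 8323. Of those used, 65.9%, 65.1%, 81.1% and 76.6% held at least 1 member transcript (RP 65.5 ± 0.588%, RPC 78.9 ± 3.20%, SD, n = 2 each). The difference of 13.4 percentage points gave p = 0.33 in a two-sided exact permutation test over animals, the smallest p that 2 against 2 allows. Without thinning the shares were 89.0%, 89.0%, 97.6% and 94.5%. Endothelial-like nuclei, which lack motile cilia, gave 61.4%, 64.1%, 73.3% and 71.7% at the same depth, and macrophage- or monocyte-like nuclei 50.7%, 50.4%, 55.7% and 66.5%. The tumor-like shares were thus little above those of endothelial-like nuclei of the same animal, and cannot be read as expression of a motile cilium program in each nucleus. The median depths of these nuclei before thinning were 2501 to 3369 transcripts for tumor-like, 2469 to 4294 for endothelial-like and 3305 to 4737 for macrophage- or monocyte-like nuclei. The summed member level of the endothelial-like nuclei (1021, 983, 1603 and 1539 CPM) was also higher in both RPC animals. So was that of macrophage- or monocyte-like nuclei (922, 988, 1465 and 1245 CPM), so the order was also seen in the sums of other classes. The same order held in club-like (962, 1175, 1656 and 1643 CPM), smooth muscle- or pericyte-like (963, 929, 1518 and 1397 CPM), alveolar type 1- and type 2-like, T or NK cell-like, B cell-like and unnamed nuclei. It did not hold in mesothelial-like nuclei (693, 907, 1000 and 453 CPM) or in ciliated-like nuclei. For Dnah7a, the thinned shares were 0.358%, 0.533%, 3.28% and 3.00% in tumor-like nuclei, and at most 1.38% in endothelial-like and 0.746% in macrophage- or monocyte-like nuclei of any animal, which rested on 2 nuclei or fewer. Dnah7a sums in endothelial-like nuclei were 6.67, 6.21, 24.2 and 31.8 CPM on 3, 5, 21 and 35 transcripts. These other classes included deep clusters with neuroendocrine marker levels near those of tumor-like clusters (medians of 90.7 to 146 CPM). An endothelial-like cluster of 184 nuclei, at 3.19 times its animals' median depth, had 106.8 CPM, against 50.1 CPM in the largest one. A club-like cluster of 500 nuclei, at 4.05 times, had 120.9 CPM, against 22.8 CPM in the other. The part of tumor transcripts in these sums and shares was not tested. Intervals and limits here cover counting error only.

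Tumor-like nuclei in which members took at least 1% and at least 10 of the transcripts numbered 0, 0, 10 and 5, and held 0.324% of the member transcripts of tumor-like nuclei in RPC1 and 0.241% in RPC2. Without them the summed level in RPC was 1.54 times that in RP. The median share of member transcripts was 0.104%, 0.1004%, 0.170% and 0.149% of a tumor-like nucleus, so the median nucleus was also higher in both RPC animals.

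The large tumor-like clusters were each mostly of 1 animal, so a cluster that animals shared was looked at. It held 1350, 6929, 41 and 323 nuclei, and there Dnah7a was at 4.32, 5.96, 23.3 and 37.6 CPM on 16, 160, 3 and 29 transcripts, and the summed level at 1399, 1121, 1792 and 1608 CPM. The RPC nuclei of this mostly RP cluster were above the RP nuclei on both measures. Mostly RPC clusters with at least 10 nuclei of each animal varied. In 1 of RPC2 (81, 17, 10 and 2360 nuclei) the summed level was 1598, 1766, 2093 and 1382 CPM, with both RP animals above RPC2. Another (34, 18, 25 and 2366) gave 1748, 1746, 1835 and 1754 CPM. A cluster of RPC1 (21, 31, 583 and 29), led by Grik2, Lrrtm4, Erbb4 and Nrxn3, gave 1518, 1165, 1599 and 1189 CPM. In the last (18, 139, 86 and 3513) both RPC animals were above, at 1402, 1225, 1852 and 1640 CPM. A shallow cluster led by Stpg4, Gm41556 and Trim69 was shared more evenly (176, 166, 108 and 115 nuclei). Dnah7a was there at 4.39, 20.2, 43.1 and 17.1 CPM on 1, 4, 7 and 3 transcripts, too few to separate RP2 from RPC2. The summed level there was at 914, 1207, 2369 and 1701 CPM. In the clusters that held over 1000 nuclei of an animal, Dnah7a was at 1.59 to 5.96 CPM in RP and at 16.1 to 57.8 CPM in RPC, whereas the summed level overlapped, at 1042 to 1399 CPM in RP and 1382 to 2051 CPM in RPC. First-round wells split each animal at the first barcoding step, and no well was shared between animals, so they show technical spread within an animal only. Across them the summed level was 1043 and 1245 CPM in RP1, 1119 and 1134 in RP2, 1826, 1896 and 1874 in RPC1, and 1682 and 1654 in RPC2. The 7 sublibraries ranged for RP1 over 1108 to 1198 CPM and for RP2 over 1102 to 1166 CPM, whereas those of RPC1 ran from 1796 to 1892 CPM and those of RPC2 from 1628 to 1714 CPM, without overlap between genotypes.

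**Figure D4:**
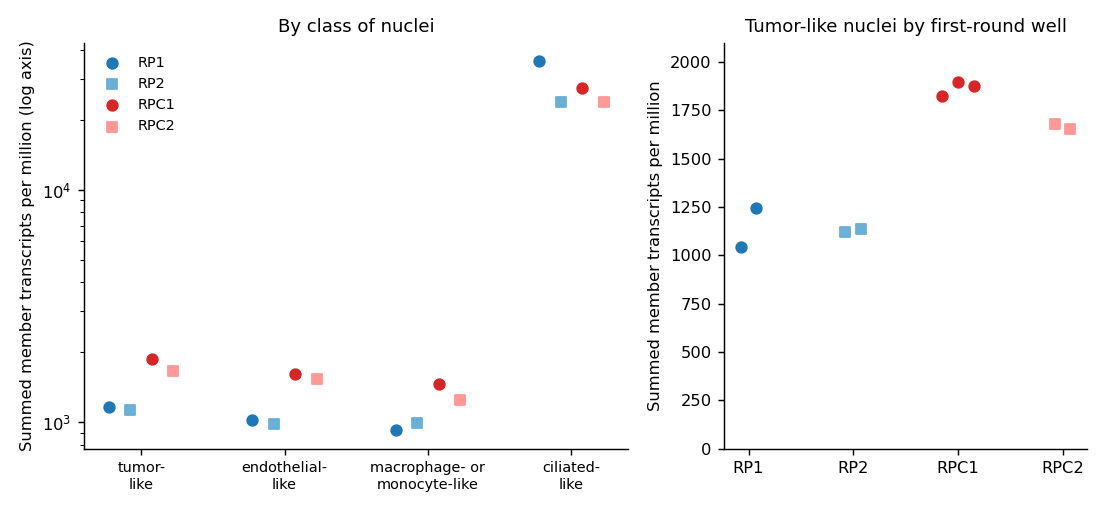
Summed CPM of the 94 genes by class of nuclei (left, log axis) and in tumor-like nuclei by first-round well (right, linear axis from 0). Points are animals on the left and wells on the right. Ciliated-like nuclei lie between 23863 and 35765, far above the other classes. In tumor-like nuclei the lowest RPC well (1654) is above the highest RP well (1245), but wells of an animal are not replicates of its genotype.

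The regulators of motile ciliogenesis were divided in tumor-like nuclei, with 9 of 16 fold changes above 0 (49.0% over all genes). Foxj1, the factor that switches on motile cilium genes, was at 3.08, 1.92, 3.82 and 3.83 CPM, which is 2.16% of its ciliated-like level (147 ± 107 CPM), with a log2 fold change of 0.62 ± 0.35. Rfx2 was lower in both RPC animals (52.4, 46.0, 28.3 and 44.4 CPM, -0.44 ± 0.25), and Rfx3 (377, 269, 224 and 375 CPM) overlapped. Mcidas, which starts multiciliation, was at 16.8, 14.3, 14.0 and 28.4 CPM and Ccno at 1.98, 1.41, 1.21 and 4.24 CPM, each with only RPC2 above the rest. Myb (80.3, 76.3, 78.9 and 62.0 CPM) and Trp73 (84.6, 102, 67.3 and 85.9 CPM) overlapped, and Gmnc, at most at 0.217 CPM, was not tested. Deup1, which is also one of the ciliated markers, was at 35.8, 34.99, 99.3 and 58.5 CPM (1.16 ± 0.28, DESeq2 adjusted p = 0.027). Of 16 regulators tested, 3 were higher and 3 lower at an unadjusted p under 0.05 (7.38% and 7.74% over all genes).

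Other genes of the cilium were counted in the same fit. Of 71 tested motile cilium genes outside the name rule, 16 were higher and 2 lower at an unadjusted p under 0.05 (7.38% and 7.74% over all genes), and 7 and 1 were called by DESeq2 (2.00% and 1.74% over all genes), with a median log2 fold change of 0.37. Among them Vwa3b was at 4.54, 6.41, 28.7 and 22.2 CPM and Armc3 at 1.98, 1.45, 9.54 and 6.34 CPM, while Spef1 (21.5, 22.1, 10.3 and 11.1 CPM) was the gene called lower. Hydin, a giant central apparatus gene, was at 1.94, 2.50, 1.23 and 2.81 CPM against 840 CPM in ciliated-like nuclei. Of 46 genes of the primary cilium and intraflagellar transport, which motile and immotile cilia share, 11 were higher and 1 lower, with a median of 0.26. DESeq2 called Ift74, Cc2d2a and Ofd1 among these. Cytoplasmic dynein genes, whose motors work outside the axoneme, had a median of -0.14 over 14 genes, with 1 higher and 2 lower. As a check of ciliated cells among tumor-like nuclei, the 16 ciliated markers summed to 112, 112, 213 and 161 CPM there and to 5088 to 8553 CPM in ciliated-like nuclei. None of the 16 was at 0 in tumor-like nuclei, where Ccdc153, Tekt1 and Fam216b were at most at 0.435 CPM and Deup1 made up the most, and their part in the member values was not tested.

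Ciliated-like nuclei themselves were 10 of 8363, 28 of 8874, 9 of 10853 and 18 of 10164 nuclei, or 0.120% (exact 95% interval 0.0574% to 0.220%), 0.316% (0.210% to 0.456%), 0.0829% (0.0379% to 0.157%) and 0.177% (0.105% to 0.280%). The share was 0.218 ± 0.139% in RP and 0.130 ± 0.0666% in RPC (SD, n = 2 each), and the two-sided exact permutation test over animals gave p = 0.67. With 9 ciliated-like nuclei in RPC1, under the minimum of 10, the genotypes were not tested gene by gene in these nuclei. Dnah5, at 1116, 786, 790 and 733 CPM there, and Dnah9, at 1464, 842, 966 and 787 CPM, overlapped between genotypes, on 77 to 252 transcripts per animal.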

How the data were processed

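Single nuclei of 4 animals were barcoded with the Evercode kit in 7 libraries, each holding nuclei of all animals. The authors mapped reads to GRCm39 and deposited raw counts of transcripts per gene and nucleus, 1 matrix per animal. Of the 12 columns of the table of nuclei, 8 were not used.

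Nuclei with at least 300 counts, at most 10% mitochondrial counts and at most 12000 genes were kept. They were clustered without the 94 genes (2000 variable genes, 20 principal components, 20 neighbors, Leiden resolution 0.4, seed 1) with scikit-learn 1.9.0, igraph 0.11.9 and leidenalg 0.10.2 in Python 3.11.15. Clusters were named from 13 marker lists, by a scoring rule set after the clusters were seen. To be called tumor-like, a cluster without a non-tumor name needed non-tumor scores of at most 0.5. Its median neuroendocrine marker level also had to exceed that of named non-tumor clusters up to 2 times their animals' depth. No doublet caller was run, and an alternative dropped deep tumor-like nuclei, with over 4 times the transcript median of the same animal. The animal is the replicate, and with 2 per genotype an exact permutation test cannot go below p = 0.33.

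Counts were summed per animal and class and tested with edgeR 4.0.16 (quasi-likelihood, TMM, filterByExpr, two-sided, Benjamini-Hochberg, standard error from the F statistic) in R 4.3.3, with DESeq2 1.42.0 as an alternative. CPM is relative to the summed counts of the class. The genes named are the 8 members with the highest and the 8 with the lowest fold change, the 10 most abundant in each of the tumor-like and ciliated-like nuclei, those called by either tool, 8 regulators, Hydin and Casp8. Further genes (Cfap77, Dnah1, Dnah14, Rsph4a, Rsph10b, Dnah8, Dnah10, the Odad genes, Dnaaf5, Spag16, Spag6l, Dnah17, Deup1, Vwa3b, Armc3, Spef1 and those called by DESeq2 in the other lists) were picked after their values were seen. The members, lists and roles were chosen with earlier results of these data known, and the X-box forms after the sequences were read. Promoter windows came from RefSeq (GRCm38.p6) and gene positions from GENCODE (GRCm39). The edgeR step was tested on simulated data.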

Additional observations from a re-analysis of the deposited data

Results flagged for a closer look

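In 4 of the 33 named members with at least 10 transcripts in ciliated-like nuclei, both RPC animals were above both RP animals in tumor-like nuclei and below them in ciliated-like nuclei. Over all 8683 tested genes with that many ciliated-like transcripts, 123 (1.42%) showed this, or 4.92% of the 2502 with both RPC animals higher in tumor-like nuclei, beside 4 of 22 such named members. Since the named members were picked partly by tumor-like fold change, the 4 of 33 cannot be compared with the 1.42%. The difference between the classes was not tested, and ciliated-like values rest on 9 to 28 nuclei per animal. Cfap46 had a tumor-like log2 fold change of 1.40, while its ciliated-like levels were 928 and 715 CPM in the RP animals and 517 and 562 CPM in the RPC animals. Dnaaf3 had a tumor-like log2 fold change of 1.58 and ciliated-like levels of 304 and 150.4 CPM in RP and 97.5 and 53.7 CPM in RPC. For Dnah2 the tumor-like log2 fold change was 0.92 and the ciliated-like levels were 449 and 361 CPM in RP and 254 and 264 CPM in RPC. For Odad1 the log2 fold change was 0.33, with 377 and 284 CPM in RP and 234 and 225 CPM in RPC.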

How the results depend on the processing

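Alternatives beyond those planned (DESeq2 on all kept nuclei, leaving out nuclei rich in member transcripts, the ciliated-like levels under other clusterings, and the split of members by RP level) were chosen after seeing the data. DESeq2 called 650 genes in tumor-like nuclei and 695 in all kept nuclei where edgeR called none, and 10 and 7 members. The 26 members higher in RPC at an unadjusted p under 0.05 became 14 to 21 with 1 animal left out. The 2 lower ones became 1 under DESeq2, DESeq2 size factors, no filter on low counts, at least 500 counts per nucleus, resolution 0.8, the replicate block and without deep nuclei, 1 to 3 with 1 animal left out, 9 in all kept nuclei and 8 there under DESeq2. Summed over all kept nuclei, the member median of 0.43 was 0.15 by edgeR and 0.15 by DESeq2, and the summed level in RPC was 1.41 times that in RP. The difference in ciliated-like share ranged from -0.186 to 0.0104 percentage points with 1 animal left out, above 0 only without RP2. The causes were not tested.

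Log2 fold changes that changed sign in all kept nuclei were those of Cfap299 (-0.10, by DESeq2 -0.057), Cfap43 (-0.16, by DESeq2 -0.12) and Dnah6 (-0.68, by DESeq2 -0.65). Dnah12 was at 0.030 under DESeq2, 0.061 with no filter, 0.019 with at least 500 counts, 0.14 with members kept for clustering, 0.011 under the replicate block and 0.33 without deep nuclei. With 1 animal left out, ranges that crossed 0 were -0.46 to 1.33 for Ccno, -1.32 to 0.19 for Cfap97d2, -0.36 to 0.46 for Dnah12, -0.36 to 0.48 for Dnah6, -0.83 to 0.34 for Hydin, -0.14 to 0.87 for Mcidas, -0.33 to 0.028 for Myb, -0.51 to 0.22 for Rfx3 and -0.044 to 0.24 for Rsph3b. An arm left with 1 animal was assumed to vary like the other.

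The replicate numbers did not pair the animals (correlation of the differences across genes -0.05), and with the replicate block 0 genes were called and the members' median was 0.41. For single named genes, 575 alternative values kept direction and side of the threshold, 17 passed it (all under DESeq2) and 24 had the other sign. The gene-by-gene comparison of RPC with RP in ciliated-like nuclei and its alternatives were not run, as RPC1 had 9 such nuclei.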

Other observations

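Among genes near the targeted locus, 139 tested genes start within 10 Mb of Casp8, and 26 of them were higher and 3 lower in RPC tumor-like nuclei at an unadjusted p under 0.05 by edgeR, with a median log2 fold change of 0.19, beside -0.01 over all genes. Over all genes tested, 7.38% were higher and 7.74% lower. Within 2 Mb, 9 of 52 were higher and 2 lower, with a median of 0.17. Genes within 2 Mb of Dnah7a had a median of 0.36 over 40 genes, and those within 2 Mb of Dnaaf11, on another chromosome, -0.15 over 18 genes.

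Cfap92 differed more between animals of a genotype than between genotypes in tumor-like nuclei, at 6.08 and 2.39 CPM in RP1 and RP2 and at 11.4 and 2.15 CPM in RPC1 and RPC2.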
